A study of Mus musculus with 2 samples.

Results

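In heart muscle each action potential opens L-type calcium channels in the T-tubule membrane, and the calcium that enters opens ryanodine receptors in the facing membrane of the sarcoplasmic reticulum. Junctophilins hold the 2 membranes together, triadin and junctin tie the ryanodine receptor to the calcium buffer calsequestrin inside the reticulum, and FK506-binding proteins and the kinase CaMKII act on the channel from the cytosol. Calcium leaves the cell mainly through the sodium-calcium exchanger, and IP3 receptors form a further, less abundant release route. The genes described here are the 10 that encode these parts: Ryr2, Itpr1, Fkbp1b, Camk2d, Casq2, Trdn, Asph, Jph2, Jph1 and Slc8a1. They were chosen by name, by matching the gene identifiers of the count files to symbols of GENCODE release M21, and all 10 were found among 55401 identifiers.

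RNA was sequenced from C57BL/6 mouse hearts. All mice had undergone TAC (transverse aortic constriction), in which a tie around the aorta puts the left ventricle under pressure load. The TAC group has 1 library, written below as TAC alone or the TAC library. The TAC with Dioscin group, the dioscin library, also has 1, and dioscin is a steroidal saponin from plants whose treatment lasted 4 weeks from surgery. Hearts without surgery were not analysed here. The labels give no age, no number of hearts per library and no dissection, and the treatment text is the same for both libraries, so that the TAC library is taken as untreated from its treatment label.

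The libraries held 16782741 (TAC) and 17612259 (dioscin) counts in genes. Levels are given as CPM, counts relative to 1e6 of the library size after scaling with edgeR's TMM factors. Each ratio divides the level in the dioscin library by that in the TAC library, with 0.5 added to both counts, followed in brackets by its exact 95% Clopper-Pearson interval. The intervals cover counting error only, because no replicate exists and reads were not told apart from PCR copies. No difference below was therefore tested, and none has a replicate check. A gene is called higher or lower under what is called the size rule: 1 CPM or more in either library, a 2-fold or larger ratio either way, and an interval without 1. In RNA of a tissue, fewer cells of a type and less RNA per cell cannot be told apart.

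Heart muscle transcripts were abundant in both libraries, with 8 working heart muscle markers summing to 45895 CPM with TAC alone and 50584 CPM with dioscin. Of 6 markers of atrial muscle, 5 were higher by the size rule, none was lower, and the 6 summed to 592 CPM with TAC alone and 17319 CPM with dioscin. Nppa made up most of both sums, with 588 CPM with TAC alone and 12663 CPM with dioscin. Mybphl and Bmp10 were at 0 counts in the TAC library, which had 1 count of Sln and 13 of Myl7, an atrial myosin light chain with 30109 counts in the other library. In the dioscin library Mybphl had 3427 counts, while Bmp10 had 3 and did not reach 1 CPM. How much atrial tissue each library held is not given by the labels. Of the 8 working heart muscle markers, 1 passed the size rule: the ventricular transcription factor gene Irx4 was 4.20-fold lower in the dioscin library. Among the other 7, 5 had intervals above 1 (Myl3, Myh6, Tnnt2, Tnni3 and Actc1) and 2 below. These 2 were Myl2, with a ratio of 0.785 (0.779 to 0.791), and Myh7, with 0.757 (0.745 to 0.770). Mesothelial markers (7 of 8) and adipocyte markers (5 of 6) were also higher, with sums of 18.5 and 153 CPM and of 0.811 and 31.1 CPM. Of 6 fibroblast markers 2 were higher (463 and 1359 CPM in sum), and of 6 B cell markers 5 were lower (17.1 and 3.86 CPM). Dcn made up most of the fibroblast sums, with 259 and 1062 CPM. Of the 6 fibroblast markers, 4 had intervals above 1, and 2 intervals, of Col1a1 and Tcf21, held 1. These values accompany every comparison below, and their part in the results was not tested.

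Of the 10 genes, 1 was higher by the size rule (Fkbp1b) and none was lower. The background was 19.3% of the 15697 genes that reached 1 CPM, 10.5% higher and 8.77% lower, so a count of 1 in 10 lies near it. All 10 genes passed the level filter, Fkbp1b through the dioscin library alone. The counting interval lay above 1 for 5 genes (Ryr2, Trdn, Jph2, Jph1 and Fkbp1b) and below 1 for 3 (Itpr1, Camk2d and Asph), and it held 1 for Casq2 and Slc8a1. Over all genes the interval lay above 1 for 35.1% and below 1 for 32.1%. The median log2 ratio of the 10 genes was 0.19, beside 0.01 for all genes tested. With the libraries scaled to sarcomere genes it was -0.021, beside -0.195 for all genes, so the sign of the median depended on the scale.

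**Figure D1:**
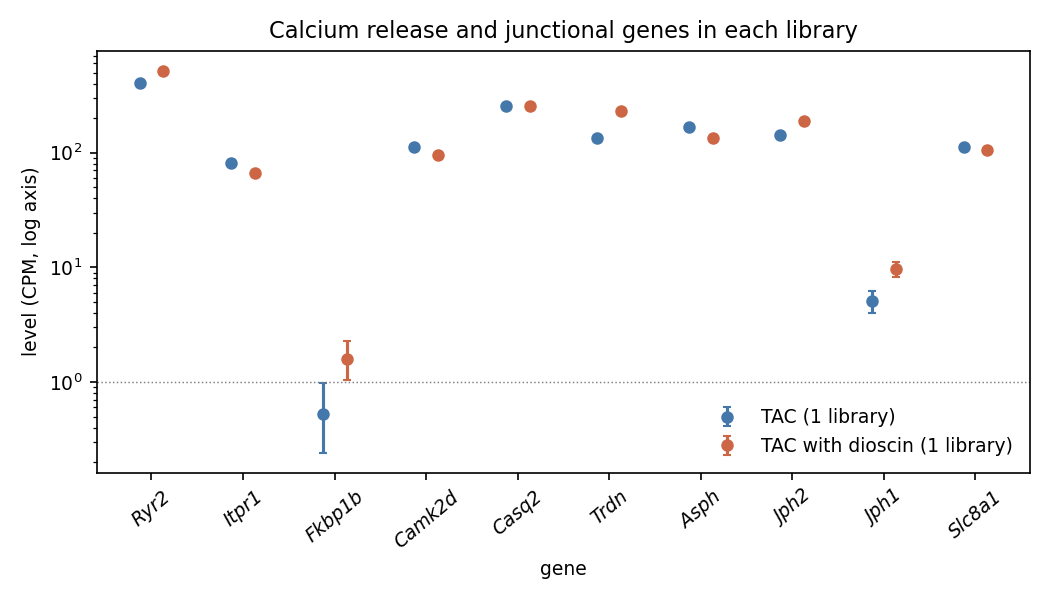
Level of each of the 10 genes in CPM (log axis) in the TAC library and the TAC with dioscin library, 1 library each; bars are exact 95% Poisson intervals of the count and the dotted line marks 1 CPM. Ryr2 is the highest in both libraries (405 and 516 CPM) and Fkbp1b the lowest (0.521 and 1.58 CPM).

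The FK506-binding proteins bind the ryanodine receptor and stabilise its closed state. The heart expresses a pair of them, from Fkbp1b (the protein known as calstabin-2) and from its paralog Fkbp1a (calstabin-1). Because Fkbp1b was the member past the size rule and had few counts, its reads had to be told apart from those of Fkbp1a. The coding sequences of the pair are shown for this reason, 5′ to 3′ from base 1 to base 300, as read from the GENCODE M21 transcripts ENSMUST00000020964.6 and ENSMUST00000044011.11 on GRCm38. Capitals mark the bases at which they differ.
Fkbp1b: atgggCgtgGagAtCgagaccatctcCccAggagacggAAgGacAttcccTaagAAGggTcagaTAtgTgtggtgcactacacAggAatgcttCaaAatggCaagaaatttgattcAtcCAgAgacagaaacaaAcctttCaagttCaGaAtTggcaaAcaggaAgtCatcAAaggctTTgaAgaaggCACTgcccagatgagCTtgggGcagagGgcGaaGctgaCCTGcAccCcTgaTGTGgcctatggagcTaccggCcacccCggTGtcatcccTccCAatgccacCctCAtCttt
Fkbp1a: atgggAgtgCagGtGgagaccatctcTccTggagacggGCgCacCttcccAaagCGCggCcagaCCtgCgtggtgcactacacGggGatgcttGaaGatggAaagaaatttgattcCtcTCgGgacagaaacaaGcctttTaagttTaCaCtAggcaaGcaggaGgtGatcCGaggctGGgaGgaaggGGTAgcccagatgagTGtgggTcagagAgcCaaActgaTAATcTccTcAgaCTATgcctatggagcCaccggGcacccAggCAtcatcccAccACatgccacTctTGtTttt
Without the stop codon both are 324 bases long, and 82 of these bases differ, which is an identity of 74.7%. The longest identical run is 14 bases. No window of 50 bases of any Fkbp1b transcript occurs in a transcript of another gene on either strand.

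Fkbp1b (ENSMUSG00000020635.8; chromosome 12, 4833174 to 4841591, minus strand) had 9 counts with TAC alone and 27 with dioscin. The ratio was 2.92 (1.38 to 7.31), and 8.91% of all genes tested had a larger log2 ratio in size. The interval reaches well below 2, and with a filter of 5 CPM the gene was not tested at all. Fkbp1a had 2026 and 1724 counts, a ratio of 0.859 (0.805 to 0.916). Fkbp1b made up 0.442% (exact 95% interval 0.202 to 0.838) of the counts of the pair with TAC alone and 1.54% (1.02 to 2.24) with dioscin. Fkbp1a therefore held nearly all FK506-binding protein transcripts of this pair in both libraries, also per kilobase of exon, where its level was 30.4 and 26.1 CPM per kilobase against 0.510 and 1.55 for Fkbp1b.

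Ryr2 encodes the ryanodine receptor of the heart, the channel through which the reticulum releases calcium (ENSMUSG00000021313.16; chromosome 13, 11553102 to 12106945, minus strand). Its counts were 6987 with TAC alone and 8829 with dioscin, which is 405 and 516 CPM. The ratio was 1.27 (1.24 to 1.32), inside a 2-fold difference, and Ryr2 ranked 164 and 161 among all genes by CPM. It took up 99.5% (99.3 to 99.7) and 99.7% (99.6 to 99.8) of the ryanodine receptor counts. The log2 ratio of 0.35 was 0.14 with sarcomere genes as the scale and 0.49 when centred on genes of like length and GC content.

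The other ryanodine receptors had few counts. Ryr1, the form of skeletal muscle, had 16 counts with TAC alone and 1 with dioscin, 10.9-fold lower (2.46 to 665), and it was below 1 CPM in both. Of 8 skeletal muscle markers, 4 were at 0 counts with TAC alone and 2 with dioscin, with sums of 25.7 CPM in both. Mybpc2 made up most of both sums, with 20.3 CPM with TAC alone and 18.4 CPM with dioscin. Myh1 and Myh4, myosins of fast skeletal fibres, had 0 counts in both. Pvalb, a calcium buffer of fast skeletal fibres, had 40 and 1 counts, and was lower by the size rule, while Tnni2, a fast troponin gene, was higher. Their part in the Ryr1 values was not tested. Ryr3 had 17 and 24 counts, a ratio of 1.41 (0.734 to 2.82).

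Itpr1 encodes the type 1 IP3 receptor (ENSMUSG00000030102.11; chromosome 6, 108213096 to 108551109, plus strand), a release channel found in smooth muscle, neurons and, at lower levels, heart muscle. It had 1413 counts with TAC alone and 1129 with dioscin, 81.8 and 66.0 CPM. The ratio was 0.806 (0.745 to 0.872). The ratio of Itpr2 to Itpr1 within a library was 1.32-fold (1.16 to 1.51) larger with dioscin. Itpr2, the main form described in heart muscle cells, had 682 and 722 counts (ratio 1.07, 0.961 to 1.19), and Itpr3 had 325 and 382 (1.19, 1.02 to 1.38). Per kilobase of exon, Itpr1 was the highest of the 3 in both libraries, at 4.47 and 3.60 CPM per kilobase against 2.67 and 2.85 for Itpr2 and 2.09 and 2.47 for Itpr3. Its share of the IP3 receptor counts was 58.4% (56.4 to 60.4) with TAC alone and 50.6% (48.5 to 52.7) with dioscin. The 7 smooth muscle markers summed to 654 CPM with TAC alone and 659 CPM with dioscin, with 1 higher (Cnn1), 1 lower (Smtn) and none at 0. Of the 7, 5 had intervals above 1 and 2 below, and their median log2 ratio was 0.42. The near-equal sums include Smtn, with 228 and 113 CPM. Their part in the Itpr1 values was not tested.

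Relative to Ryr2, Itpr1 was also lower with dioscin. Per kilobase, the level of Itpr1 was 0.318 of that of Ryr2 with TAC alone and 0.201 with dioscin. This ratio of 2 genes within a library does not depend on how the libraries are scaled. It was 1.58-fold lower in the dioscin library, with a counting interval of 0.581 to 0.688 for the ratio of 0.632.

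Camk2d encodes the delta subunit of CaMKII, the main form in heart muscle, which phosphorylates the ryanodine receptor (ENSMUSG00000053819.16; chromosome 3, 126596302 to 126846326, plus strand). It had 1946 counts with TAC alone and 1628 with dioscin, 113 and 95.1 CPM, a ratio of 0.844 (0.790 to 0.902). The paralog Camk2g had 1597 and 924 counts, a ratio of 0.584 (0.538 to 0.633). Camk2a had 855 and 626 counts (0.739, 0.665 to 0.820), and Camk2b had 214 and 146 (0.689, 0.554 to 0.853). All 4 subunit genes had intervals below 1 and none passed the size rule, and all 4 log2 ratios stayed below 0 under each of the other settings. Over all genes tested, the interval lay below 1 for 32.1%, and 8.77% were lower by the size rule.

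Summed over the 4 genes, CaMKII counts were 4612 and 3324, or 267 and 194 CPM, a ratio of 0.727 (0.695 to 0.760). Camk2d held 42.2% (40.8 to 43.6) of these counts with TAC alone and 49.0% (47.3 to 50.7) with dioscin. Camk2g held 34.6% and 27.8%. Per kilobase, Camk2g and not Camk2d stood first of the 4 genes. Camk2d has 28 annotated transcripts, so the length matters. With the union of all exons the levels were 14.4 and 8.43 CPM per kilobase for Camk2g against 5.01 and 4.23 for Camk2d. With the length of the transcript that has the longest coding sequence, the values were 47.7 and 27.9 for Camk2g and 20.9 and 17.6 for Camk2d, the same order.

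Casq2, the calsequestrin of heart muscle that buffers calcium inside the reticulum (ENSMUSG00000027861.13; chromosome 3, 102086415 to 102146514, plus strand), had the ratio closest to 1 of the 10. It had 4367 counts with TAC alone and 4401 with dioscin, 253 and 257 CPM. The ratio was 1.02 (0.975 to 1.06), and 97.2% of all genes tested had a larger log2 ratio in size. Its sign depended on the scaling: the log2 ratio of 0.02 was negative under 3 of 9 other settings, with -0.18 as the lowest. The 9 include the level filters, which cannot change a ratio. Per kilobase it had the highest level of the 10 in both libraries, 92.4 and 94.0 CPM per kilobase. The skeletal form Casq1 had 108 and 76 counts, a ratio of 0.711 (0.522 to 0.961), and 2.41% and 1.70% of the calsequestrin counts.

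Trdn and Asph encode the anchors between calsequestrin and the ryanodine receptor, and their values lay on opposite sides of 1. Trdn, the gene of triadin (ENSMUSG00000019787.9; chromosome 10, 33080554 to 33476709, plus strand), had 2300 counts with TAC alone and 3953 with dioscin, 133 and 231 CPM. The ratio was 1.73 (1.65 to 1.83), past 1.5-fold but not 2-fold. Asph (ENSMUSG00000028207.18; chromosome 4, 9448069 to 9669344, minus strand) had 2898 and 2287 counts, 168 and 134 CPM, a ratio of 0.796 (0.753 to 0.841).

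Within a library, the level of Trdn per kilobase was 1.37 times that of Asph with TAC alone and 2.98 times with dioscin, a change of 2.18-fold (2.02 to 2.35) that needs no scaling between libraries. This pair of genes was picked after their values were seen. The Asph locus gives rise to junctin and also to aspartate beta-hydroxylase and other products, with 20 annotated transcripts, so the gene count is no measure of junctin alone. Genes on the opposite strand cover 14.7% of its exonic length, mainly Clvs1, and this kit does not mark strand. Of its windows of 50 bases, 14.0% also occur in a transcript of another gene. Trdn has 8 annotated transcripts and no overlap with the exons of another gene.

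**Figure D2:**
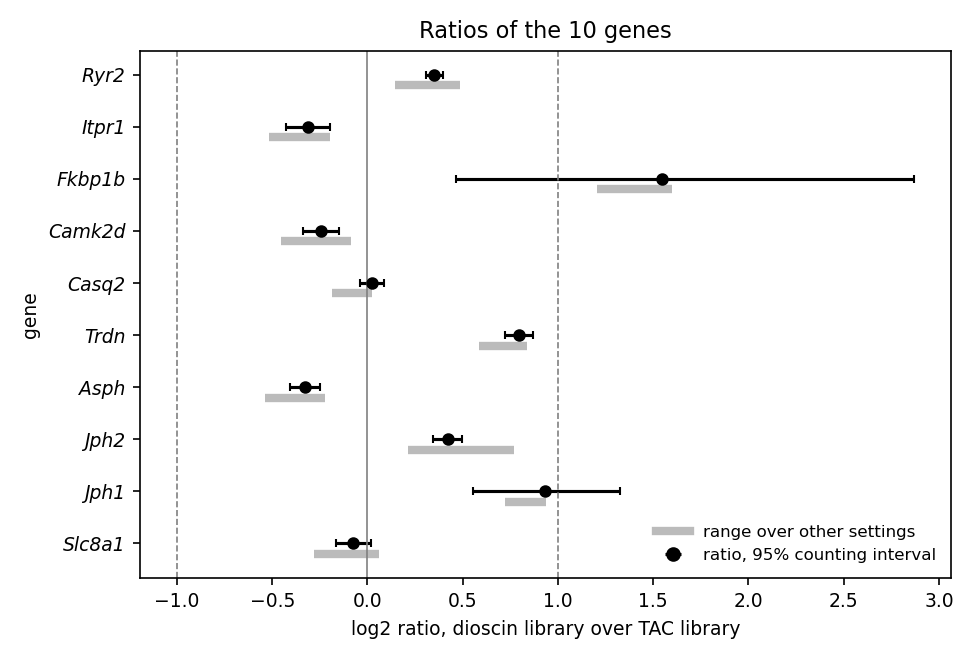
Log2 ratio (dioscin over TAC library) for the 10 genes (points) with exact 95% counting intervals (black bars) and, in grey, the lowest to highest value over the other processing settings; dashed lines mark 2-fold. The point of Fkbp1b (1.55) alone lies beyond 2-fold, with the widest interval, and Casq2 (0.02) and Slc8a1 (-0.07) lie at 0.

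Junctophilins span the gap between T-tubule and reticulum. Jph2, the cardiac form (ENSMUSG00000017817.11; chromosome 2, 163336242 to 163397993, minus strand), had 2438 counts with TAC alone and 3237 with dioscin, 141 and 189 CPM. The ratio was 1.34 (1.27 to 1.41). Against Ryr2 in the same library, its level per kilobase was 2.36-fold with TAC alone and 2.48-fold with dioscin, and the change of 1.05 had an interval that held 1 (0.988 to 1.12). It was the only member whose ratio to Ryr2 had such an interval.

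Jph1, the form best known from skeletal muscle (ENSMUSG00000042686.5; chromosome 1, 16964560 to 17097889, minus strand), had 87 and 165 counts, 5.04 and 9.64 CPM. The ratio was 1.91 (1.47 to 2.51), just inside the 2-fold limit. Its share of the junctophilin counts was 3.44% (2.77 to 4.23) with TAC alone and 4.84% (4.15 to 5.62) with dioscin, intervals that overlap slightly. The ratio of Jph1 to Jph2 within a library was 1.43-fold (1.10 to 1.86) larger with dioscin. Jph3 had 3 and 2 counts and Jph4 had 0 and 3, both genes known from brain.

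Slc8a1 encodes the sodium-calcium exchanger of heart muscle (ENSMUSG00000054640.15; chromosome 17, 81373105 to 81738377, minus strand). It had 1916 counts with TAC alone and 1804 with dioscin, 111 and 105 CPM, a ratio of 0.950 (0.890 to 1.01). The log2 ratio was -0.07 and turned to 0.06 when centred on genes of like length and GC content. Slc8a1 held 98.8% and 98.0% of the counts of the exchanger family. Slc8a2 had 20 and 31 counts (ratio 1.55, 0.863 to 2.89), and Slc8a3 had 4 and 6.

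The calcium pump gene Atp2a2, which competes with the exchanger for calcium, had 25209 and 58916 counts and was 2.36-fold higher (2.32 to 2.39). Per kilobase, the exchanger stood at 0.0246 of the pump with TAC alone and at 0.00990 with dioscin, 2.48-fold lower, with an interval of 0.377 to 0.430 for the ratio of 0.403. The levels use the union of exons, 18807 bases for Slc8a1 against 3180 for its transcript with the longest coding sequence. The change of 2.48-fold does not depend on the length. It mostly reflects the pump, because the ratio of Slc8a1 itself was 0.950 with an interval that held 1. Ratios to the pump were not among those planned. Ryr2 stood at 0.0585 and 0.0317 of the pump, 1.85-fold lower.

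**Figure D3:**
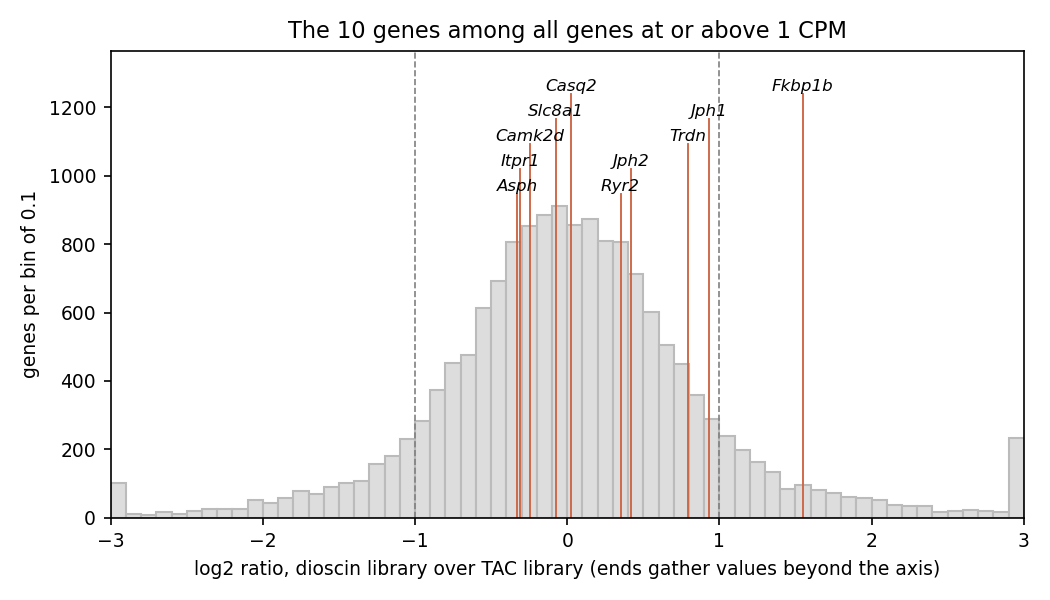
Number of genes per bin of log2 ratio (dioscin library over TAC library) for the 15697 genes that reached 1 CPM, with the 10 genes as vertical lines; dashed lines mark 2-fold. Of the 10, 7 lie between the lower and upper quartile of all genes (-0.46 and 0.49).

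Among all genes, most of the 10 lay in the middle of the distribution. Of them, 7 lay between the quartiles of all log2 ratios, which were -0.46 and 0.49, and Trdn, Jph1 and Fkbp1b lay above. The same number, 7, lay between the quartiles of the 2885 genes with a mean of 50 CPM or more (-0.34 and 0.56), of which 13.6% passed the size rule in either direction. With a limit of 1.5-fold, Trdn, Jph1 and Fkbp1b were higher and none was lower, beside 20.3% higher and 17.9% lower among all genes.

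Within the set, the proportions of the genes in these 2 libraries differed beyond counting error. Relative to Ryr2 in the same library, 3 of the other 9 genes had intervals above 1 (Fkbp1b, Trdn and Jph1) and 5 below 1 (Itpr1, Camk2d, Casq2, Asph and Slc8a1). The share of all genes relative to Ryr2 was not computed. Against the library scale, intervals lay above 1 for 35.1% of all genes and below 1 for 32.1%. These intervals leave out variation between hearts, so the counts are no trait of this set. The largest scale-free shifts were 2.37 (1.12 to 5.05) for Fkbp1b and 0.625 (0.586 to 0.665) for Asph. With Casq2 as the reference, 5 had intervals above 1, 3 below, and Slc8a1 held 1 (0.934, 0.865 to 1.01).

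The order of levels per kilobase of exon was the same in both libraries: Casq2, Jph2, Trdn, Ryr2, Asph, Slc8a1, Camk2d, Itpr1, Jph1, Fkbp1b. In the TAC library Trdn and Ryr2 were neighbours with close values (14.2 and 14.1 CPM per kilobase), and the ratio of 1.01 became 1.38 in the dioscin library. The middle of the order depends on the length used. With the length of the transcript that has the longest coding sequence, Slc8a1 moved up from place 6 to place 2 with TAC alone (34.9 CPM per kilobase) and to place 4 with dioscin (33.1), because that transcript has 3180 bases against 18807 for the union of its exons. Casq2 stayed first and Camk2d, Itpr1, Jph1 and Fkbp1b stayed last in that order under both lengths.

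Of the 13 paralogs, 9 reached 1 CPM in a library, and by edgeR-scaled CPM none of the 9 passed the size rule. Their median log2 ratio was -0.22, with 1 interval above 1 (Itpr3) and 5 below (Camk2a, Camk2b, Camk2g, Casq1 and Fkbp1a). Among all genes tested, 10.5% were higher and 8.77% lower, and intervals lay above 1 for 35.1% and below 1 for 32.1%. Without the level filter, or with the mitochondrial genes left out of the library size, Ryr1 passed as lower. In the second case the ratios hardly changed, but its 16 counts with TAC alone reached 1 CPM of the smaller library size.

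A list of 35 further genes of calcium release and removal, all at or above 1 CPM in a library, had 4 higher and 1 lower by the size rule, and 30 that did not pass. The background among all genes tested was 10.5% higher and 8.77% lower. The median log2 ratio of the list was 0.14. The 4 higher genes were Sln, Atp2a2, Tmem38b and Tcap, and the lower one was Pde4d. Sln, the pump regulator sarcolipin, is at the same time an atrial marker, with 1 count with TAC alone and 12433 with dioscin.

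Inside the reticulum, Hrc, a histidine-rich calcium-binding protein that binds triadin, had 6361 and 11043 counts, a ratio of 1.75 (1.70 to 1.81), close to that of Trdn. Srl, sarcalumenin, had 1.60 (1.52 to 1.68), whereas the chaperone Calr had 0.728 (0.693 to 0.765). The counter-ion channels that balance calcium release, Tmem38a and Tmem38b, had ratios of 1.83 (1.72 to 1.94) and 2.78 (2.25 to 3.48), from 1630 to 2949 and from 116 to 321 counts.

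Of 9 regulators of the release channel, 1 was lower and none higher, beside 8.77% lower and 10.5% higher among all genes tested. Pde4d, a phosphodiesterase that lowers cyclic AMP near the channel, had 493 and 232 counts and was lower, with a ratio of 0.475 (0.404 to 0.556). S100a1, a calcium sensor that promotes release, had 8619 and 10427 counts (ratio 1.22, 1.19 to 1.26). Speg, a kinase at the junction, had 10106 and 8009 (0.800, 0.776 to 0.823).

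On the T-tubule side, the channel pore gene Cacna1c had 6829 and 7590 counts, a ratio of 1.12 (1.09 to 1.16). Per kilobase, Ryr2 stood at 0.753 of Cacna1c with TAC alone and 0.856 with dioscin. Tcap, a titin-associated protein that also supports T-tubules, was 2.07-fold higher (2.03 to 2.11), from 849 to 1760 CPM, and it lost the call with total counts, sarcomere genes or length and GC as the reference. Dysf, a membrane repair protein, had 0.613 (0.575 to 0.653), and Bin1, which shapes T-tubules, 0.730 (0.619 to 0.860). Pln, the pump inhibitor phospholamban, had 24640 and 26524 counts (1.09, 1.07 to 1.11), with opposite-strand genes over 64.7% of its exonic length.

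Of 6 store entry and IP3 signalling genes none passed the rule, and 5 intervals held 1. Among the 15697 genes tested, 19.3% passed the rule and 5163 intervals held 1. Plcb1, a phospholipase that makes IP3, was the exception at 1.69 (1.36 to 2.11), from 135 to 226 counts. Stim1 and Orai1, sensor and channel of store-operated entry, had ratios of 1.12 (0.957 to 1.31) and 1.03 (0.795 to 1.35).

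**Figure D4:**
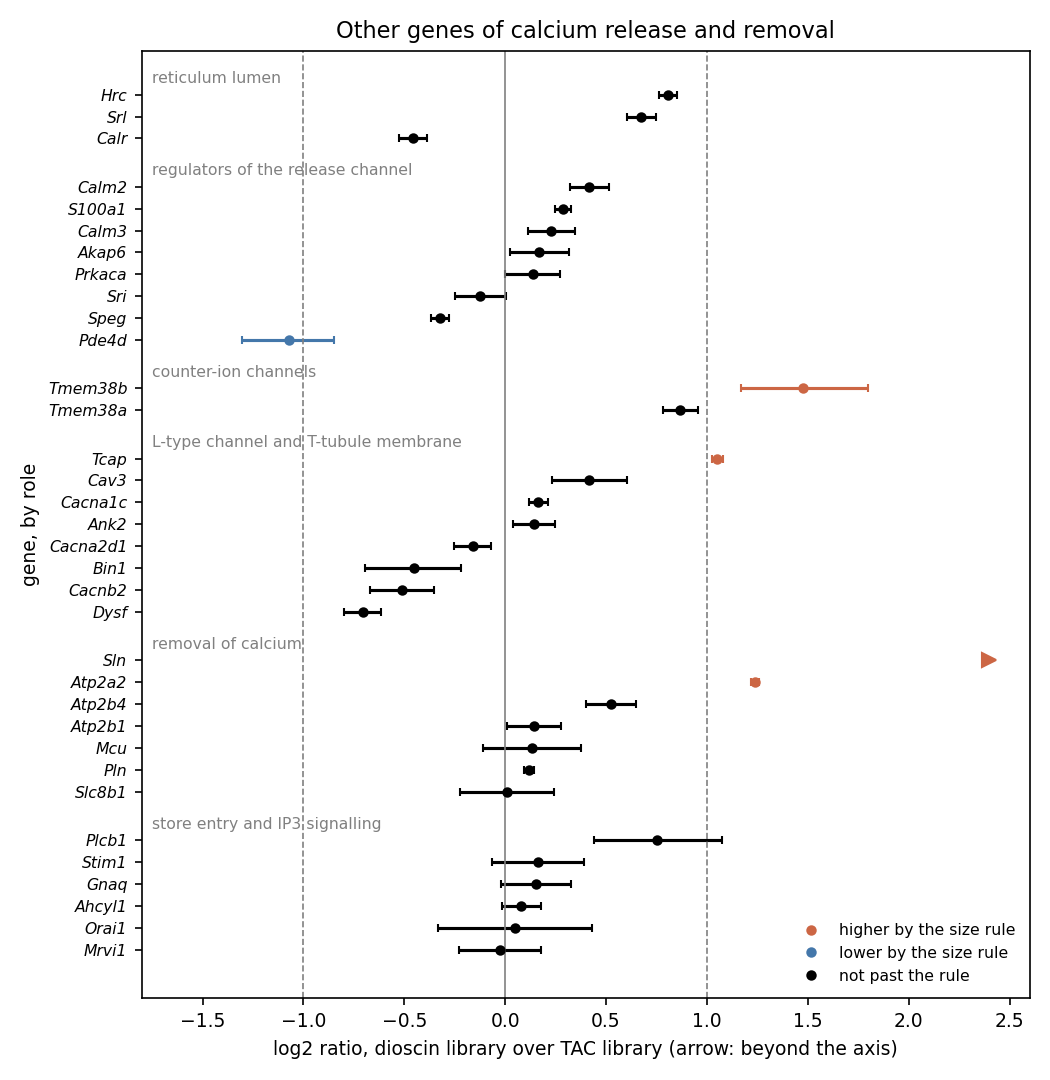
Log2 ratio (dioscin library over TAC library) with exact 95% counting intervals for other genes of calcium release and removal, by role, with 1 of the 35 listed genes not drawn; colours mark the size rule and the arrow marks Sln at 13.03, beyond the axis. The 4 genes higher lie in 3 roles, and the 1 gene lower, Pde4d, lies among the channel regulators.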

How the data were processed

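The authors deposited raw counts of reads per gene for both libraries. Per the submitters' processing notes, HISAT2 2.1.0 and HTSeq were used on mm10, and per the labels' protocols a TruSeq RNA kit was used on 1 ug of RNA; this kit keeps no strand. For HTSeq, version, annotation and strand setting are not given in the sources used here. Lines for reads given to no gene, 5 in all with 73.8% and 71.5% of all HTSeq counts, stayed out.

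Gene names and lengths came from GENCODE M21 on GRCm38 (55141 of 55401 identifiers matched without version). Counts were scaled with TMM (edgeR 4.0.16 in R 4.3.3). With 1 library per group no gene was tested. The size rule and its intervals were checked on simulated counts with counting error only. Changes beyond 2-fold were placed only in genes at 5 CPM or more, above the level of Fkbp1b. The check does not cover variation between hearts. Alternatives were DESeq2 1.42.0 size factors, other scales, filters of 0 and 5 CPM, pseudocounts of 0 and 5, a 1.5-fold limit, and centring on 200 genes of like length and GC content. Length of the longest coding transcript, and calls by interval alone, were added after the data were seen. Only within-library ratios with Ryr2 or Casq2 as the reference were planned. Text names all 10 genes, paralogs, list genes past the rule and the 4 most abundant others; Srl, Calr, Tmem38a, Cacna1c, Dysf, Bin1, Plcb1, Stim1, Orai1 and the low paralogs were added after their values were seen. The genes and lists were chosen with earlier results of these data known. Of the 35 further genes, 1 is counted but not reported here.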

Additional observations from a re-analysis of the deposited data

How the results depend on the processing

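Fkbp1b was the 1 gene past the size rule under every setting except the 5 CPM filter, which left 9 genes tested and 0 called, and the looser limits: with 1.5-fold, 3 of the 10 genes, 10 of the 35 further genes and 1 of the paralogs (Camk2g) were called, and with the interval alone, chosen after seeing the data, 8, 27 and 6. Among all genes tested, the 1.5-fold limit called 20.3% higher and 17.9% lower, and the interval alone 35.1% above 1 and 32.1% below. Without mitochondrially encoded genes, and with no filter, 1 paralog was called (Ryr1), which was then not held below the level filter. The median log2 ratio of the 10 genes, 0.19, was 0.024 with the 5 CPM filter, which left out Fkbp1b. With sarcomere genes as the reference it was -0.021. This scale divides every ratio by the same constant, and it shifted the median of all genes by -0.21 as well. The cause of the ratios of the sarcomere genes was not tested. Of 89 single-gene values under other settings, 70 stayed inside the counting interval. The level filters do not change a ratio, so the values under those settings lay inside it by construction. No paired analysis was possible because each group has 1 library, and no library could be left out. Depth limits Fkbp1b, Jph1 and the rare paralogs, whose intervals are wide.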
